A study of Mus musculus with 6 samples.

Results

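The genes described here are 10 plasma membrane transporters of amino acids in mouse blastocysts. They were chosen by symbol, as the rows of the deposited expression table whose Ensembl identifiers carry the names Slc3a2, Slc7a5, Slc7a1, Slc7a3, Slc7a6, Slc7a7, Slc1a5, Slc38a1, Slc38a2 and Slc38a4. All 10 were found among the 55774 rows of the table, and all 10 were among the 11924 genes tested. RNA was sequenced from wild-type embryos of ICR mice, an outbred stock, whose mothers were 6 to 8 weeks old. In both groups, embryos were cultured from the two-cell stage for 75 hours in CZB, a culture medium for early mouse embryos, with extracellular vesicles from human Fallopian tubes. The vesicles came from donors with endometriosis in the oEV-EMT group and from donors without it in the oEV-ctrl group, and the sources differ on which other gynaecological condition the latter had. Each group had 3 libraries, and each library was made from 10 pooled blastocysts. Embryos cultured without vesicles were not analysed here. The methods speak of replicates and repeated experiments without tying each library to its own culture, so the p-values measure the spread between these pools.

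Cells take up most amino acids through carriers of the solute carrier (SLC) families, each with its own set of substrates and its own coupling to sodium or to the exchange of another amino acid. The blastocyst, the embryo at the stage of implantation, draws on such carriers for protein synthesis, and uptake of leucine and arginine is known to bear on the outgrowth of its outer layer, the trophectoderm. Some carriers consist of a heavy chain, which brings the pair to the membrane, and a light chain, which carries the amino acid. Slc3a2 encodes the heavy chain known as CD98hc or 4F2hc. Slc7a5 (LAT1), Slc7a6 (y+LAT2) and Slc7a7 (y+LAT1) encode light chains that pair with it. Slc7a1 (CAT1) and Slc7a3 (CAT3) encode carriers of arginine and lysine that work without a heavy chain. Slc1a5 (ASCT2), Slc38a1 (SNAT1), Slc38a2 (SNAT2) and Slc38a4 (SNAT4) encode sodium-coupled carriers, mainly of neutral amino acids such as glutamine and alanine.

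Values are FPKM, fragments per kilobase of transcript and per 1000000 fragments, so that levels can be compared between genes. Read totals are not used here, but the steps between low values correspond, if the smallest step is 1 read of a pair, to roughly 18600000 to 37600000 read pairs per library, and both groups hold deep and shallow libraries. At these depths the transporters rest on roughly 237 to 19400 pairs per gene and library. The groups were compared with limma on log2(FPKM + 1), and a gene was called when its adjusted p was 0.05 or less and its log2 fold change at least 1 in size. The median log2 fold change of all tested genes was 0.17 and not 0, so each change is also given relative to that median. Median-of-ratios scaling, which divides each library by a size factor from 0.910 to 1.18, brought this median to 0.01. A single unannotated row was the highest in every library. It held 15.3%, 16.0% and 19.0% of the summed FPKM in oEV-EMT 1, 2 and 3 and 31.5%, 19.7% and 21.3% in oEV-ctrl 1, 2 and 3. Its part in the shift of the median was not tested.

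None of the 10 transporters passed the test, and limma called 0 of 11924 genes, which is 0%. The lowest adjusted p of any gene was 0.0934. At an unadjusted p of at most 0.05, 1831 genes passed, of which 1527 were higher in oEV-EMT, 12.8% of those tested, and 304 were lower, 2.55%. Among the transporters, 3 of 10 were higher at this level, Slc7a3, Slc7a6 and Slc7a7, and 0 were lower. After median-of-ratios scaling, 779 genes were higher and 765 lower at this level by limma, and 0 of the 10 transporters were among them. All oEV-EMT libraries lay above all oEV-ctrl libraries for 18.1% of tested genes and below them for 4.34%. This was so for 2 of 10 transporters above, Slc7a6 and Slc7a7, and for 0 below. After the scaling these shares over tested genes were 9.94% and 10.2%, and Slc7a7 was the only transporter without overlap. Between 3 and 3 libraries an exact two-sided permutation test cannot give a p below 0.1.

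In level, the transporters spanned from a mean of 154 FPKM for Slc3a2 over the 6 libraries to 3.42 FPKM for Slc7a1. Slc3a2 alone held 43.8% of the summed FPKM of the 10 genes. Slc7a6 followed with a mean of 75.4 FPKM, Slc38a4 with 41.2 FPKM, and both positions held in 6 of 6 libraries. Slc7a7 at 26.7 FPKM and Slc7a3 at 22.5 FPKM were not separated, since Slc7a7 was the higher of the pair in 4 of 6 libraries. Slc38a1 at 12.1 FPKM lay above Slc38a2 at 8.86 FPKM in 5 of 6 libraries. Slc7a5 and Slc1a5 had nearly the same mean, 5.13 and 5.02 FPKM, and Slc7a5 was the higher in 2 of 6 libraries. Each of the other neighbours in this order was ranked the same way in every library.

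**Figure D1:**
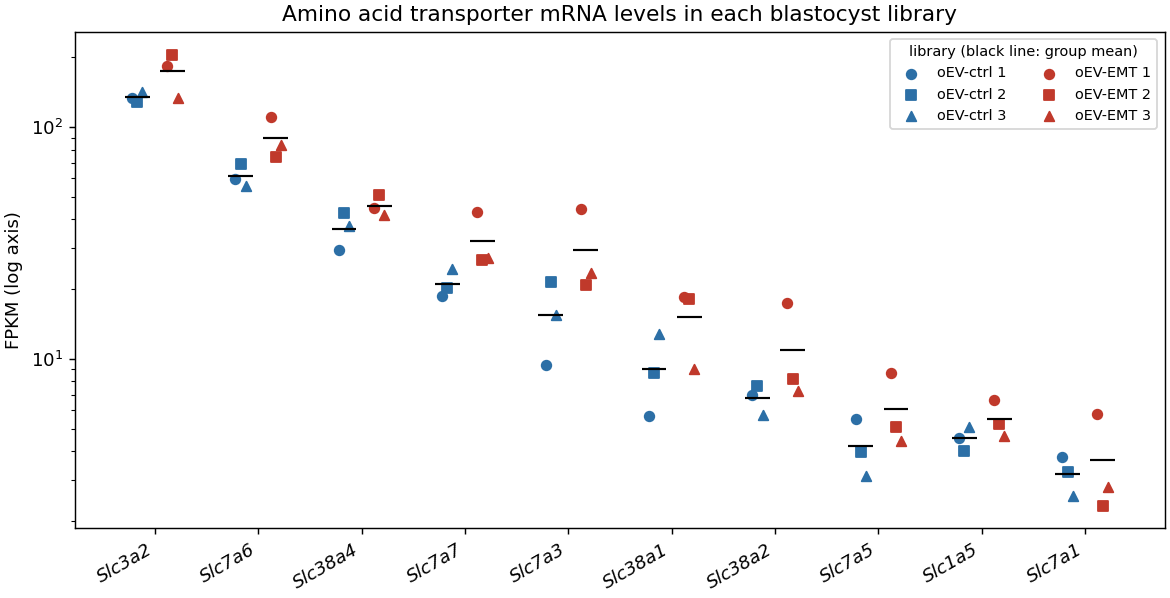
FPKM of the 10 transporters (log axis) in the 3 oEV-ctrl libraries (blue) and the 3 oEV-EMT libraries (red), ordered by mean level, with replicate numbers as symbols and group means as black lines. The genes run from a mean of 154 FPKM for Slc3a2 to 3.42 FPKM for Slc7a1, and the groups do not overlap for Slc7a6 and Slc7a7.

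The heavy chain gene, Slc3a2, lies on chromosome 19 (ENSMUSG00000010095, chr19:8706882-8723369, minus strand, GRCm38). Its FPKM were 183, 205 and 133 in oEV-EMT 1, 2 and 3 and 133, 129 and 142 in oEV-ctrl 1, 2 and 3. oEV-EMT 3 lay within the range of the controls and the other oEV-EMT libraries above it. This gives a log2 fold change of 0.34 (SE 0.21, limma adjusted p 0.461), and of 0.17 after subtraction of the median of tested genes. Of the 50-base stretches of Slc3a2 transcripts, 3.51% also occur in transcripts of other genes, so that a small part of its reads may be shared.

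Of the light chain genes, Slc7a6 and Slc7a7 encode the y+L carriers, which exchange arginine or lysine inside the cell for a neutral amino acid and sodium outside. Slc7a6 (ENSMUSG00000031904, chr8:106168857-106198706, plus strand, GRCm38) had 110, 74.1 and 83.9 FPKM in oEV-EMT 1, 2 and 3 and 59.7, 69.5 and 55.4 FPKM in oEV-ctrl 1, 2 and 3. The groups did not overlap, though oEV-EMT 2 and oEV-ctrl 2 were close. The means were 89.4 ± 18.6 and 61.5 ± 7.24 FPKM (SD, n = 3 each), 1.45 times higher in oEV-EMT. The log2 fold change was 0.52 (SE 0.22) with an unadjusted p of 0.0367 and an adjusted p of 0.293 by limma, and 0.35 relative to the median. After median-of-ratios scaling Slc7a6 overlapped between the groups, with 68.0 in oEV-EMT 2 against 76.0 in oEV-ctrl 2.

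Slc7a7 (ENSMUSG00000000958) lies at chr14:54369442-54417780 on the minus strand of GRCm38. FPKM were 43.0, 26.7 and 27.2 for oEV-EMT 1, 2 and 3 and 18.7, 20.2 and 24.4 for oEV-ctrl 1, 2 and 3. oEV-EMT 1 stood well above the rest, and the remaining oEV-EMT libraries were just above oEV-ctrl 3. The means were 32.3 ± 9.26 and 21.1 ± 2.97 FPKM (SD, n = 3 each), or 1.53 times higher. On the log2 scale the change was 0.57 (SE 0.24, limma unadjusted p 0.041, adjusted p 0.303), and 0.39 relative to the median. The groups stayed apart after median-of-ratios scaling, with 24.5 as the lowest oEV-EMT value and 24.0 as the highest oEV-ctrl value. Exons of Slc7a7 overlap those of Oxa1l, on the opposite strand, by 232 bases, and strandedness of the reads is not given in the sources used here. Oxa1l, which encodes a mitochondrial insertase, had 38.1, 26.01 and 29.5 FPKM in oEV-EMT and 23.5, 28.6 and 30.5 FPKM in oEV-ctrl, and its part in the Slc7a7 values was not tested.

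The light chain of the leucine carrier LAT1, Slc7a5 (ENSMUSG00000040010, chr8:121881150-121907694, minus strand, GRCm38), was far lower than its y+L relatives. The oEV-EMT libraries had 8.71, 5.08 and 4.40 FPKM and the oEV-ctrl libraries 5.51, 3.96 and 3.12 FPKM. The groups overlapped, and oEV-ctrl 1 was above 2 of the 3 oEV-EMT libraries. limma gave a log2 fold change of 0.42 (SE 0.28, adjusted p 0.502), which is 0.25 relative to the median. Without oEV-EMT 1 the log2 fold change was 0.17, and 0.0295 relative to the median.

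Added up, the 3 light chain genes had 162, 106 and 115 FPKM in oEV-EMT 1, 2 and 3 and 83.8, 93.7 and 82.9 FPKM in the controls. The sums did not overlap as deposited, but they did after median-of-ratios scaling, where oEV-EMT 2 had 97.2 and oEV-ctrl 2 had 102. The ratio of this sum to Slc3a2 does not depend on any scaling. On the log2 scale it was -0.18, -0.95 and -0.21 in oEV-EMT and -0.67, -0.46 and -0.78 in oEV-ctrl, with oEV-EMT 2 the lowest of all 6 libraries. The heavy chain mRNA thus exceeded the summed light chain mRNA in every library, and the balance of the pair did not separate the groups.

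The RefSeq promoter table for GRCm38.p6 held start sites of 6 of the 10 genes, 14 windows in all, of which Slc7a7 had 5. It held none for Slc7a5, Slc7a3, Slc1a5 and Slc38a1. Sequence is shown for Slc7a6 and Slc7a7 because these were the transporters whose deposited values did not overlap between groups. The 250 bases before each start were searched on both strands for TGATGNAA, the core of the composite element bound by ATF4 with a C/EBP factor in genes of the amino acid response, and for the GC box GGGCGG. The composite core was found in 2 of the 14 windows, both of Slc7a7, against 3.45% of all 32851 windows in the table. The GC box was found in 8 of the 14, at least 1 for each of the 6 genes, against 32.7% of all windows. Windows of a gene can overlap. A match of letters is a description and does not show that a factor binds. Capitals mark the composite core in the Slc7a7 stretches below, all read from RefSeq on the strand of the gene.
Slc7a7, chr14:54418068-54418095: cgcttgggctTGATGAAAggttcactgg
Slc7a7, chr14:54417928-54417952: tagaagcTGATGCAAcagcttcccc
The windows shown for both genes hold neither whole motif in the 100 bases directly before their start, and these bases overlap no GENCODE exon. Their share of G and C is 80% for Slc7a6 and 52% for Slc7a7. The Slc7a7 stretch ends on the first base of the composite core TGATGCAA above, which is cut there. Another Slc7a6 stretch before a start, chr8:106168821-106168920, overlaps GENCODE exons and holds 1 GC box.
Slc7a6, chr8:106168754-106168853: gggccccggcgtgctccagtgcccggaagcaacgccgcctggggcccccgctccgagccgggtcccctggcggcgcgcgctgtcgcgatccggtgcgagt
Slc7a7, chr14:54417945-54418044: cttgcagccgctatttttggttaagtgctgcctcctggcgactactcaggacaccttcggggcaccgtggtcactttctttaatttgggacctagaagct

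The 2 cationic amino acid carriers that need no heavy chain differed in level and in spread. Slc7a3 (ENSMUSG00000031297, chrX:101079210-101086020, minus strand, GRCm38) had 44.4, 20.8 and 23.4 FPKM in oEV-EMT 1, 2 and 3 and 9.43, 21.5 and 15.5 FPKM in oEV-ctrl 1, 2 and 3. Both extremes were single libraries, oEV-EMT 1 at the top and oEV-ctrl 1 at the bottom, and oEV-ctrl 2 was above oEV-EMT 2. The means were 29.6 ± 12.9 and 15.5 ± 6.05 FPKM (SD, n = 3 each). Its log2 fold change of 0.88 (SE 0.35, 95% confidence interval 0.11 to 1.66) had the highest value of the 10 genes, with an unadjusted p of 0.0296 and an adjusted p of 0.273 by limma. Relative to the median of tested genes it was 0.71, with an interval of -0.06 to 1.48. The log2 fold change was 0.56 without oEV-EMT 1 and 0.59 without oEV-ctrl 1.

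Slc7a1 (ENSMUSG00000041313, chr5:148327410-148399904, minus strand, GRCm38) was the lowest of the 10 genes. It had 5.81, 2.32 and 2.80 FPKM in oEV-EMT and 3.77, 3.26 and 2.56 FPKM in oEV-ctrl. oEV-EMT 1 was the highest and oEV-EMT 2 the lowest of all libraries. The log2 fold change was 0.08 (SE 0.29, limma adjusted p 0.911), -0.09 relative to the median, and -0.07 after median-of-ratios scaling, so it has no stable sign. The log2 ratio of Slc7a3 to Slc7a1, which no scaling of whole libraries alters, was 2.93, 3.17 and 3.07 in oEV-EMT and 1.32, 2.73 and 2.59 in oEV-ctrl. It did not overlap between the groups, as the only one of 8 ratios computed among the transporters. No share over other pairs of genes was computed, and oEV-ctrl 1 lay far below the rest. The longest transcripts have 2750 bases for Slc7a3 and 7179 for Slc7a1. With a transcript length offset the log2 fold changes were 0.81 and 0.23, and the part of length in this ratio was not tested.

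Of the sodium-coupled carriers, Slc38a4 (ENSMUSG00000022464, chr15:96994820-97055956, minus strand, GRCm38) had the highest level and Slc1a5 the lowest. Slc38a4, a paternally expressed imprinted gene, had 45.0, 50.9 and 41.6 FPKM in oEV-EMT and 29.4, 42.7 and 37.4 FPKM in oEV-ctrl. Only oEV-EMT 3 was within the range of the controls. Its log2 fold change of 0.33 (SE 0.21, limma adjusted p 0.483) was 0.16 relative to the median. Slc1a5 (ENSMUSG00000001918, chr7:16781340-16798274, plus strand, GRCm38), an exchanger of glutamine, had 6.62, 5.21 and 4.66 FPKM in oEV-EMT and 4.53, 4.01 and 5.09 FPKM in oEV-ctrl. Its log2 fold change was 0.22 (SE 0.22, limma adjusted p 0.664) and 0.05 relative to the median.

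Slc38a1 and Slc38a2, genes for glutamine and alanine carriers that lie close together on chromosome 15, varied more. Slc38a1 (ENSMUSG00000023169, chr15:96571418-96642913, minus strand, GRCm38) had 18.5, 18.1 and 9.002 FPKM in oEV-EMT and 5.68, 8.69 and 12.8 FPKM in oEV-ctrl. oEV-EMT 3 lay between oEV-ctrl 2 and oEV-ctrl 3. The log2 fold change was 0.69 (SE 0.34, limma adjusted p 0.363), or 0.52 relative to the median, and 4.23% of the 50-base stretches of its transcripts occur in other genes. Slc38a2 (ENSMUSG00000022462, chr15:96687392-96699730, minus strand, GRCm38), known as the SNAT that cells induce when amino acids are short, had 17.4, 8.16 and 7.27 FPKM in oEV-EMT and 7.002, 7.62 and 5.74 FPKM in oEV-ctrl. A single library, oEV-EMT 1, stood above all others. Its log2 fold change was 0.53 (SE 0.31, limma adjusted p 0.438), or 0.36 relative to the median. Without oEV-EMT 1 it was 0.17, and 0.0287 relative to the median.

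**Figure D2:**
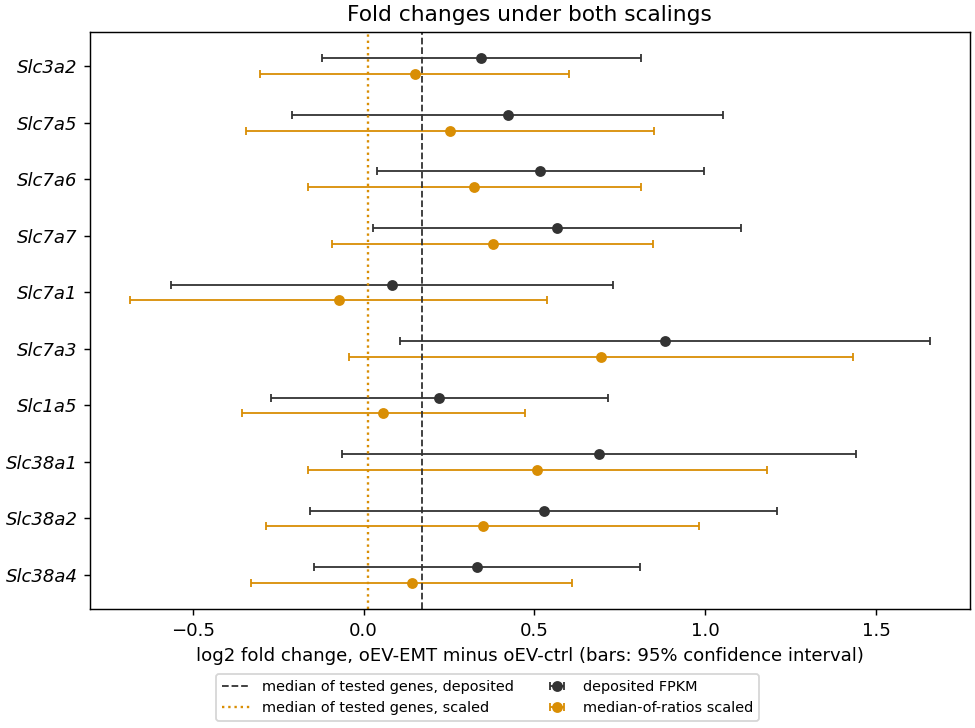
Log2 fold change of each transporter, oEV-EMT minus oEV-ctrl, with 95% confidence intervals from limma, for deposited FPKM (black) and after median-of-ratios scaling (orange). The vertical lines give the median of all tested genes under each, 0.17 and 0.01. Deposited values give intervals above 0 for Slc7a3, Slc7a6 and Slc7a7, and every scaled interval includes 0.

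The median over the 10 genes was 0.47 on the log2 scale, 0.30 above that of all tested genes, and 9 of 10 genes lay above the latter, against 50% of tested genes by construction. Slc7a1 was the one below it. Summed over the 10 genes, FPKM were 483, 417 and 337 in oEV-EMT and 277, 310 and 304 in oEV-ctrl, a mean of 412 ± 72.8 against 297 ± 17.7 (SD, n = 3 each). After median-of-ratios scaling the lowest oEV-EMT sum was 341 and the highest oEV-ctrl sum 339. When each gene was expressed as a share of this sum, all 10 shares overlapped between the groups, as for Slc3a2 with 37.99%, 49.2% and 39.5% in oEV-EMT and 48.1%, 41.5% and 46.7% in oEV-ctrl.

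These differences were carried unevenly by the libraries. oEV-EMT 1 was the highest of the 6 libraries for 8 of 10 transporters, against 37.4% of tested genes, and after median-of-ratios scaling for 7 of 10, against 21.7%. oEV-EMT 2 was the highest for the remaining genes, Slc3a2 and Slc38a4 among the deposited values. With the median of each library removed, the transporters had a median deviation of 0.44 on the log2 scale in oEV-EMT 1 and of -0.20 to -0.03 in the other libraries. Libraries also differed by transcript length, and most in oEV-EMT 1 and oEV-EMT 3, in opposite directions. Tested genes with long transcripts lay 0.26 above those with short ones in oEV-EMT 1, 0.15 and 0.27 below them in oEV-EMT 2 and 3, and 0.0035 to 0.086 above them in the controls. Of the 10 genes, 3 belong to the 2908 genes with the longest transcripts. Without oEV-EMT 1 the median of the transporters relative to all tested genes was 0.18, and 2 of 10 did not overlap, against 27.2% of tested genes. Leaving out oEV-ctrl 3 gave a similar median, 0.19, and 4 of 10 without overlap, against 27.8%. For the other omissions the median was 0.31 to 0.36.

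**Figure D3:**
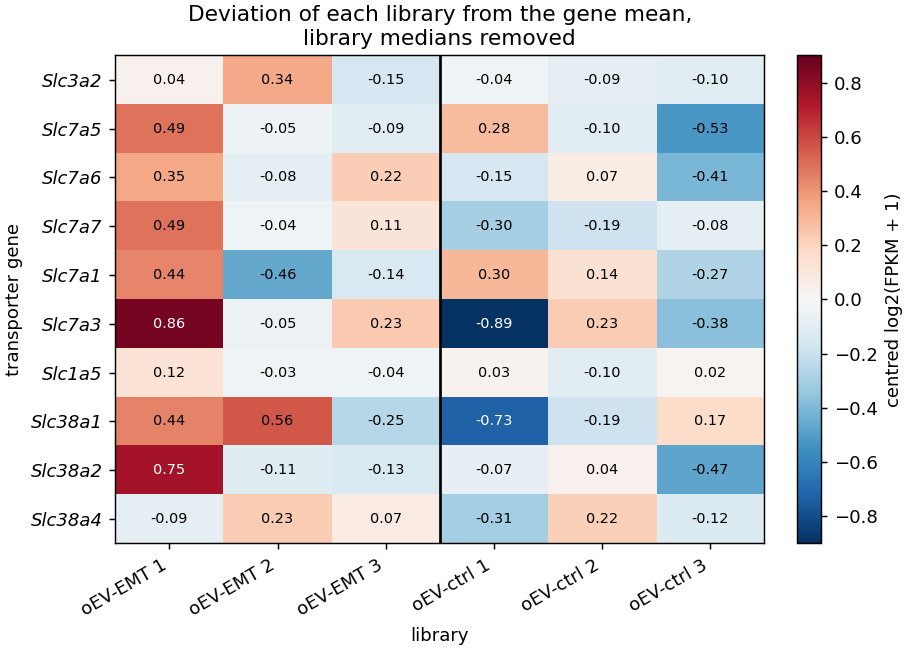
Deviation of log2(FPKM + 1) from the mean of each gene over the 6 libraries, after removal of each library's median, for the 10 transporters (rows) in the 6 libraries (columns). Red is above and blue below the gene's mean. oEV-EMT 1 holds the highest value for 7 of the 10 genes, from 0.86 for Slc7a3 to 0.12 for Slc1a5.

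A list of 47 further amino acid transporter genes shows what else the blastocysts held. Of these, 15 passed the filter on low values, 9 were listed at 0 in every library, and 0 were called, as for all tested genes. The cystine carrier Slc7a11 had a mean of 0.0414 FPKM. The highest levels were those of Slc6a14, a carrier of neutral and cationic amino acids, with a mean of 43.5 FPKM, the glutamate and aspartate carrier Slc1a1 with 22.9 FPKM, and the taurine carrier Slc6a6 with 9.14 FPKM. By its mean Slc6a14 was between Slc7a6 and Slc38a4, but it was above Slc38a4 in only 3 of 6 libraries. It had 64.9, 47.1 and 42.8 FPKM in oEV-EMT and 23.5, 47.3 and 35.3 FPKM in oEV-ctrl, which overlap.

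Of the 15 tested genes of this list, 3 did not overlap between the groups as deposited, all with oEV-EMT above, against 18.1% of all tested genes. After median-of-ratios scaling this was 2 of 15, against 9.94%, and Slc38a8 overlapped. Slc6a15, a carrier of branched-chain amino acids and proline, had 3.08, 1.93 and 2.76 FPKM in oEV-EMT and 0.885, 0.881 and 1.47 FPKM in oEV-ctrl (log2 fold change 0.62 relative to the median, limma adjusted p 0.174). Ctns, which exports cystine from lysosomes, had 9.60, 5.56 and 4.16 FPKM against 2.23, 3.71 and 3.92 FPKM (0.58 relative to the median, limma adjusted p 0.275). Slc38a8 was low in both groups, at 1.547 to 2.49 FPKM against 1.04 to 1.45 FPKM. The list had a median of 0.24 relative to all tested genes, with 12 genes above and 3 below, and without oEV-EMT 1 this median was 0.02.

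Genes of the amino acid response, which cells switch on through the kinase GCN2 and the factor ATF4 when amino acids are short, were set beside the transporters. Of 16 listed, 14 were tested, 0 were called, and their median was -0.11 relative to all tested genes, with 5 above and 9 below. As deposited, 2 of 14 had all oEV-EMT values above the controls and 1 all below, against 18.1% and 4.34% of tested genes. After median-of-ratios scaling this was 1 above and 2 below, against 9.94% and 10.2%. Atf4 itself had 101, 86.5 and 90.0 FPKM in oEV-EMT and 154, 56.6 and 72.5 FPKM in oEV-ctrl, where the controls enclosed the oEV-EMT values. Phgdh, the first enzyme of serine synthesis, had 107, 99.1 and 73.4 FPKM in oEV-EMT and 59.8, 40.4 and 59.9 FPKM in oEV-ctrl without overlap (limma adjusted p 0.184). Asns, asparagine synthetase, had 236, 227 and 269 FPKM against 161, 214 and 173 FPKM, without overlap as deposited but with overlap after the scaling. Cebpg, a partner of ATF4, was the only one with all deposited oEV-EMT values below, 3.83 to 5.41 FPKM against 5.94 to 8.25 FPKM, and after the scaling Psph was so as well.

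Among 17 genes for the use of amino acids, 15 were tested and 0 were called. Their median was 0.04 relative to all tested genes, with 8 above and 7 below. In 5 of them all oEV-EMT libraries were above the controls as deposited, against 18.1% of tested genes, and in 2 after median-of-ratios scaling, against 9.94%. The 3 with the largest difference are described. Srm, spermidine synthase, had 61.8, 72.4 and 58.8 FPKM in oEV-EMT and 36.9, 23.2 and 33.3 FPKM in oEV-ctrl. Its log2 fold change was 1.05 (SE 0.23) with an adjusted p of 0.118 by limma. Got1, the cytosolic aspartate aminotransferase, had 96.3, 98.7 and 74.6 FPKM against 57.7, 52.9 and 67.1 FPKM. Sms, spermine synthase, had 38.3, 33.3 and 37.2 FPKM against 25.8, 23.7 and 31.9 FPKM, and it overlapped after the scaling, as did Glul and Amd1, while Srm and Got1 did not.

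**Figure D4:**
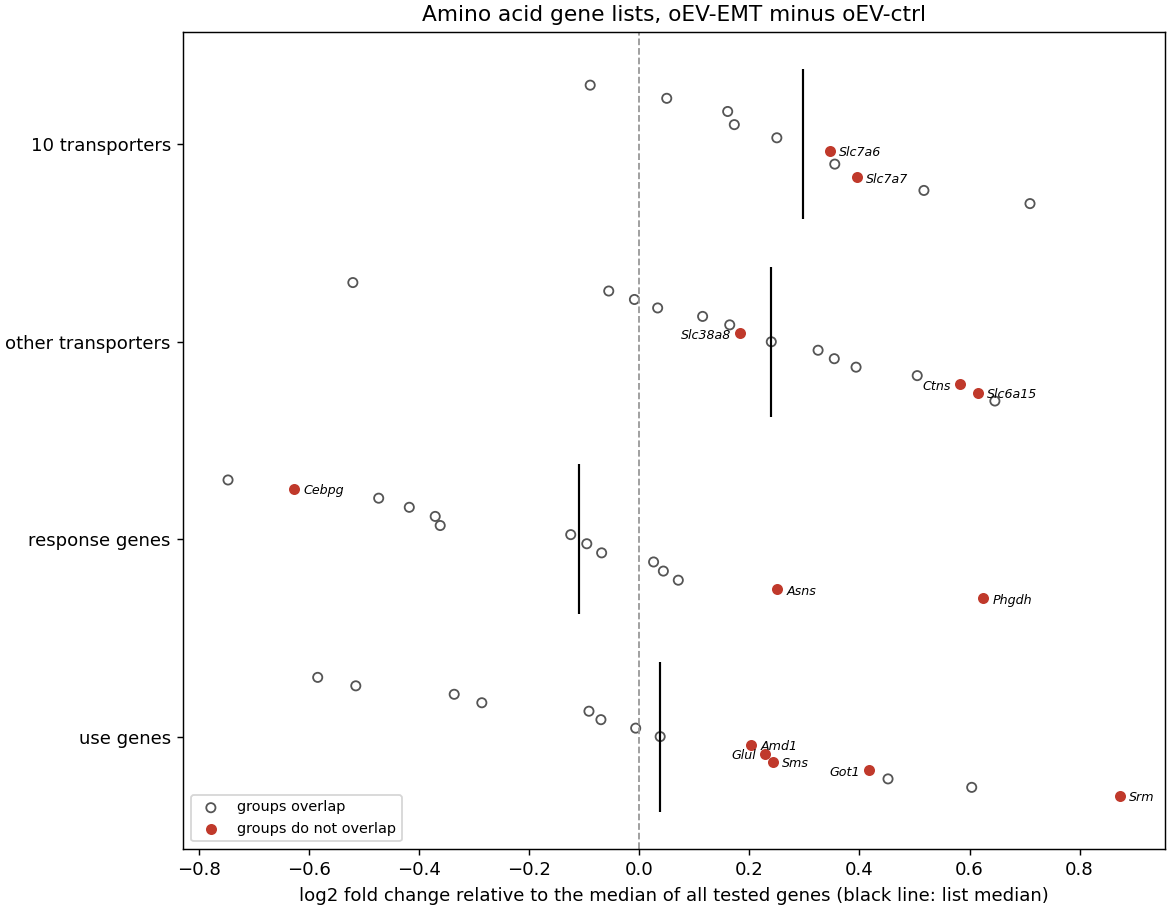
Log2 fold change of each tested gene, oEV-EMT minus oEV-ctrl, relative to the median of all tested genes (dashed line), for the 10 transporters, 15 other transporters, 14 response genes and 15 use genes, with list medians as black lines. Filled red points are genes whose groups do not overlap, and the list medians are 0.30, 0.24, -0.11 and 0.04.

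The libraries were checked for the cell types of the blastocyst and for foreign cells. Of 8 trophectoderm markers, 0 separated the groups, and their summed FPKM was 3136 to 4746 in oEV-EMT and 3082 to 4836 in oEV-ctrl. Krt8 and Krt18, with means of 1185 and 2573 FPKM, held most of this sum. Relative to the median of tested genes, 2 of the 8 were above and 6 below, with a list median of -0.16. Of 6 epiblast markers, Nanog, Pou5f1 and Fgf4 were above the controls in all oEV-EMT libraries, as were 18.1% of tested genes, and the list summed to 106 to 145 FPKM against 53.2 to 104 FPKM. Relative to the median of tested genes, these 3 were at 0.94, 0.80 and 0.82. Tdgf1 was at 0.15 and Sox2 and Klf4 at -0.49 and -0.07, all with overlap. After median-of-ratios scaling Nanog, Pou5f1 and Fgf4 stayed above the controls, as did 9.94% of tested genes. Of 5 primitive endoderm markers, Gata4 and Sox7 were above the controls in all oEV-EMT libraries, against 18.1% of tested genes. As deposited, 0 of the 5 were wholly below, against 4.34%. The list sums were 30.3 to 46.9 FPKM in oEV-EMT and 30.6 to 36.1 FPKM in oEV-ctrl. Gata6 had a log2 fold change of -0.19, or -0.36 relative to the median of tested genes. After median-of-ratios scaling Gata6 lay wholly below the controls, as did 10.2% of tested genes. After the same scaling Gata4 stayed above the controls, against 9.94% of tested genes, and Sox7 overlapped. Sox17 and Pdgfra were at 0.78 and -0.10 relative to the median, both with overlap. In bulk RNA of whole embryos, fewer cells of a type and less RNA per cell cannot be told apart, and the part of these marker levels in the transporter values was not tested. Cumulus markers summed to at most 0.486 FPKM with 4 of 6 at 0 in every library, and oviduct epithelium markers to at most 0.349 FPKM with 2 of 4 at 0. Blood markers summed to 6.77 to 15.5 FPKM in oEV-EMT and 4.25 to 7.43 FPKM in oEV-ctrl, with Ptprc and Hbb-bs at 0. Cd68, a lysosomal protein of macrophages that other cells also make, held most of this sum, with 10.96 ± 4.17 FPKM in oEV-EMT and 5.22 ± 1.45 FPKM in oEV-ctrl (SD, n = 3 each), and overlapped between the groups only after median-of-ratios scaling.

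The tested genes whose profile over the 6 libraries was most like that of Slc3a2 were Tle6, Asb13 and Aldh9a1, with Pearson's r of 0.997, 0.983 and 0.977 after removal of library medians. Tle6, which encodes a protein of the subcortical maternal complex of the oocyte and early embryo, had 3.96, 5.78 and 2.19 FPKM in oEV-EMT and 2.34, 2.29 and 2.42 FPKM in oEV-ctrl. Like Slc3a2, these genes had their highest value in oEV-EMT 2. The values are a description over 6 points that share their libraries.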

How the data were processed

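Polyadenylated RNA of 6 pools of blastocysts was sequenced. The authors assembled transcripts with StringTie on mm10, per the labels, and deposited 1 value per gene and library. The aligner and strandedness are not given in the sources used here. The methods speak of TPM, but the deposited values summed to over 1000000 and were treated as FPKM. limma 3.58.1 in R 4.3.3 was run on log2(FPKM + 1), with trended and robust variance and Benjamini-Hochberg adjustment, over genes with at least 1 FPKM in at least 3 libraries. On this scale changes of low genes are understated. Exact permutation tests covered single values. Names and positions came from GENCODE M21 (55141 of 55487 identifiers matched), promoters from RefSeq. Depth was derived from the steps of low values, and the pairs per gene are approximate. For Ddit3, with 2 identifiers, the lower-numbered one was used. The procedure was tested on simulated data. The transporters and lists were chosen with earlier results of these data known. All 10 transporters were described. From the other lists, the 3 highest transporters and the non-overlapping genes furthest from the median were named, up to 4 in each direction for transporters and 3 for the rest, together with the 3 genes most like Slc3a2. Slc7a11 and Atf4 were added after their values were seen. Alternatives covered scaling, filter, pseudocount, variance model, transcript length, the replicate number as a block and the omission of each library in turn. The authors' DESeq2 results were not used.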

Additional observations from a re-analysis of the deposited data

How the results depend on the processing

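No transporter was called under any of the 17 alternatives, and the lowest adjusted p was 0.182 for Slc7a6 and 0.184 for Slc7a3, both with libraries rescaled over rows with an Ensembl identifier. The 0 tested genes past both thresholds became 4 when at least 1 FPKM was required in all 6 libraries, 0 to 17 when a library was left out, with 17 without oEV-ctrl 3 and 4 without oEV-EMT 1, and 4 without oEV-EMT 1 after median-of-ratios scaling, an alternative chosen after seeing the data. The 2 transporters without overlap, both with oEV-EMT above, became 1 with median-of-ratios scaling (9.94% of all tested genes) and 0 with upper quartile scaling (7.59%). They became 5 with rescaling over Ensembl rows (23.5% of all tested genes). When a library was left out they were 2 to 7, against 21.8% to 30.6% of tested genes. The 7 were without oEV-EMT 3, where the share was 30.6%. In the alternative chosen after seeing the data there was 1, against 19.3%. The median of the other transporters was 0.0227 to 0.417 when a library was left out. Slc7a1 reversed to -0.0734 with median-of-ratios and -0.12 with upper quartile scaling, spanned -0.23 to 0.29 over the left-out libraries, and was -0.33 in the alternative chosen after seeing the data. Relative to the median it was 0.0595 without a filter, 0.0545 with a transcript length offset, and -0.37 to 0.12 over the left-out libraries. Slc1a5 was -0.00037 with upper quartile scaling and -0.0118 in the alternative chosen after seeing the data. Relative to the median Slc1a5 was -0.0218 with the length offset, -0.0378 in that alternative and -0.0377 to 0.102 over the left-out libraries. The cause was not tested. With the replicate block, 21 genes passed both thresholds, with 0 transporters among them. Same-numbered libraries had correlations of 0.119, -0.0442 and 0.0388 of their deviations, and 2 of 6 libraries correlated best with their own number, so the numbers do not show pairing. Slc3a2, Slc7a6 and Slc38a4, the highest in level, had the lowest SE of the transporters, 0.210, 0.216 and 0.215. Below them the SE did not follow level throughout, with 0.348 for Slc7a3 and 0.222 for Slc1a5, the lower in level.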
